A study of Homo sapiens with 6 samples.

Results

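Cluster 2 is a group of 900 A375 melanoma cells out of the 5059 that the authors' cell table lists, chosen as the cells to which the authors' own clustering gave the number 2 and matched by cell name to a count table of 8505 A375 cells. A375 is a human melanoma line of genotype BRAF-V600E, and dabrafenib inhibits the mutant BRAF kinase. Of the 9 populations 1 was untreated and 8 had been adapted to dabrafenib by raising its dose in steps, with final doses of 30, 60, 125, 250 and 500 nM, 1 µM, 2 µM and 4 µM. They were marked with cell tags, pooled and sequenced together on a droplet platform that counts unique molecular identifiers (UMIs) at the 3′ ends of transcripts. Each population was 1 culture and the clusters were drawn from these same genes, so no test between groups was possible and every value is a description. Intervals are 95% exact binomial intervals and cover counting error only.

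In BRAF-mutant melanoma the kinase signals through MEK and ERK, and ERK output switches on its own brakes, such as the phosphatase DUSP6 and the Sprouty protein SPRY2. Melanocytes descend from the neural crest, and melanoma cells are known to move between a pigmented state, a neural crest-like state held by factors such as SOX10, and a dedifferentiated, mesenchymal state marked by receptor kinases such as EGFR and AXL and low SOX10. These states are known from tumours and cell lines under BRAF inhibitors.

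The cluster was concentrated in the population adapted to 250 nM. It held 11 of 442 listed untreated cells (2.49%, interval 1.25 to 4.41%), 15 of 478 at 30 nM (3.14%), 57 of 906 at 60 nM (6.29%, 4.80 to 8.07%) and 60 of 306 at 125 nM (19.6%, 15.3 to 24.5%). At 250 nM it held 574 of 733 (78.3%, 75.1 to 81.2%), and at 500 nM 107 of 493 (21.7%, 18.1 to 25.6%). At 1, 2 and 4 µM it held 24 of 605 (3.97%), 27 of 641 (4.21%) and 25 of 455 (5.49%). The share was therefore highest in the middle of the dose series and low at both ends, and the 250 nM population supplied 63.8% of the cluster. Over all 250 nM cells of the count table, listed or not, the share was 63.6%.

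**Figure D1:**
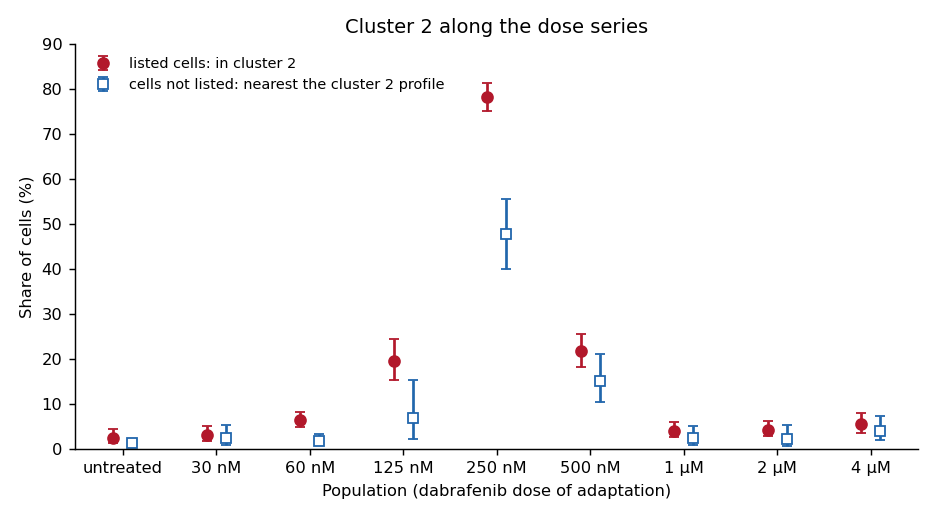
Share of cells (%) by population, untreated to 4 µM: filled circles are listed cells in cluster 2, open squares are cells outside the cell table whose profile was nearest that of cluster 2; bars are 95% exact binomial intervals. The listed share peaked at 78.3% in the 250 nM population and the unlisted share at 47.6% in the same population.

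Cells of cluster 2 had a median of 7799.5 UMIs and 3187.5 genes, against 8774 UMIs and 3314 genes in the other 4159 listed cells, and the median mitochondrial share was 6.56% against 6.55%. The sums behind the levels were 7817289 UMIs in cluster 2 and 37988911 in the other cells, and no barcode occurred under more than 1 population. The 76 members from 1, 2 and 4 µM were deeper, with a median of 12700 UMIs, against 9404 in the other listed cells of those doses. The 11 untreated and 15 30 nM members were deep too, with medians of 13910 and 10347 UMIs, against 8808 and 7287 in the other cells of their populations. For several lists the counts against the other listed cells are given with and without the 3 high doses on either side. Counts of the remaining lists, and list counts against clusters 1 and 3, include these doses unless stated.

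Levels are UMIs summed over cells per 1000000 UMIs (CPM), and ratios are differences of log2(CPM + 1), which understate the change of low genes. A gene was taken as measured where the group with more of it held 10 CPM and 20 UMIs or more, and as higher or lower at 2-fold. Of 9580 measured genes, 277 (2.89%) were higher and 403 (4.21%) lower in cluster 2 than in the other listed cells, with a median log2 ratio over all measured genes of 0.01. Since the other cells came mostly from other doses, the comparison was repeated inside the 4 populations with at least 50 cells on each side (60, 125, 250 and 500 nM). Within 60 nM 36 genes (0.454%) were higher and 322 (4.06%) lower, within 125 nM 64 (0.878%) and 658 (9.03%), within 250 nM 200 (2.20%) and 338 (3.71%), and within 500 nM 750 (8.96%) and 808 (9.65%). The mean of those 4 ratios put 194 of 9566 genes (2.03%) higher and 312 (3.26%) lower. Only 18 genes (0.188%) were 2-fold higher and 28 (0.293%) 2-fold lower in every one of these 4 populations. The split into higher and lower depends on the filter too, since 20 UMIs are a higher CPM in a smaller sum. Members at 60, 125 and 500 nM summed to 586467, 441671 and 793801 UMIs, against 7209172, 2012622 and 3561446 outside. There a gene needed more CPM to count as higher than as lower. Simulated counting error alone called 163 of 7581, 302 of 6969, 26 of 8769 and 114 of 7990 unchanged genes at the 4 doses.

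The gene that set cluster 2 apart by the largest ratio was MAOB, the monoamine oxidase of the outer mitochondrial membrane that breaks down dopamine. The next were ENPP2, which encodes autotaxin, the secreted enzyme that makes lysophosphatidic acid, then CHL1, a neural adhesion molecule of the L1 family, and PTGS2, the inducible cyclooxygenase of prostaglandin synthesis. MAOB lies on the minus strand of chromosome X (43766611 to 43882447, GRCh38, GENCODE v29), CHL1 on the plus strand of chromosome 3 (196596 to 409417) and PTGS2 on the minus strand of chromosome 1 (186671791 to 186680427). Of the 15 named genes highest in cluster 2, 10 had an entry in the RefSeq promoter table (GRCh38.p14), and those of MAOB, CHL1 and PTGS2 are printed because these genes are among the 4 of largest ratio. Each run covers 250 bases before and 50 after a transcript start, at chrX:43882401-43882700 (minus strand), chr3:197639-197938 (plus strand, 1 of 3 starts listed) and chr1:186680374-186680673 (minus strand), and capitals mark matches on either strand to the motifs named after the runs.
MAOB: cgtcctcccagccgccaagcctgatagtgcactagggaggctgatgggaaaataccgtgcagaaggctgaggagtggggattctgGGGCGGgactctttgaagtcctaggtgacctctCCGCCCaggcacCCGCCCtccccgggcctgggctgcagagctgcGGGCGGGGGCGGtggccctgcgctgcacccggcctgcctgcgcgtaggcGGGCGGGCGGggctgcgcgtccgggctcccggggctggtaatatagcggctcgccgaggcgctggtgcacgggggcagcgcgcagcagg
CHL1: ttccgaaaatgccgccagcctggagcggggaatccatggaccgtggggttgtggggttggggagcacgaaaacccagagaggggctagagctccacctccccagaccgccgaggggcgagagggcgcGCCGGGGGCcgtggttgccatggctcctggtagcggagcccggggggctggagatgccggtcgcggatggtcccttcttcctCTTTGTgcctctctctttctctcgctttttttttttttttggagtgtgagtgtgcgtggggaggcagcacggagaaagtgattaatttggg
PTGS2: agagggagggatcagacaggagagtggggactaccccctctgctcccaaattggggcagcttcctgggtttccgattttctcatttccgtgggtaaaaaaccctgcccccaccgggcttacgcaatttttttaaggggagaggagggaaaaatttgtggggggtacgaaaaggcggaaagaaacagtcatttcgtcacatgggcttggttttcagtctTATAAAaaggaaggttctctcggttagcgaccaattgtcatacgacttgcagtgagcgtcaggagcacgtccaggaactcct
The MAOB promoter held 7 matches to the GC box GGGCGG, which occurs in 45.0% of the 35116 promoters of this length. The CHL1 run held 1 match to the SOX letters ACAAAG (16.1% of promoters) and 1 to the TFAP2 letters GCCNNNGGC (23.2%), and the PTGS2 run held the TATA letters TATAAA (11.5%) with its first base 32 bases before the start. The AP-1 letters TGANTCA (7.71%), the CRE letters TGACGTCA (1.85%) and the E-box CACGTG (7.26%) were found in none of the 3 windows, and the matches overlapped only where neighbouring GC boxes of the MAOB run share bases. These matches are a description of the letters only.

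MAOB had 259 UMIs in cluster 2 and 46 in the other cells, 33.1 against 1.21 CPM (27.4-fold higher, interval 19.9 to 38.3). From untreated to 4 µM, cluster 2 members held 6.59, 31.9, 18.8, 18.1, 43.2, 26.5, 10.1, 6.01 and 11.9 CPM of MAOB, against 1.22, 1.32, 1.11, 3.98, 7.12, 0.562, 0.349, 0.167 and 1.19 CPM in the other listed cells of the same populations. The member level was above the outside level in each population, but on 1, 3, 2 and 4 UMIs in untreated, 1 µM, 2 µM and 4 µM members. Within the 4 compared populations the smallest fold was 4.56 (1.49 to 13.9) at 125 nM and the largest 47.1 (11.5 to 414) at 500 nM, where the outside cells had few UMIs. Thinned to 4000 UMIs a cell, MAOB was detected in 11.96% of 853 cluster 2 cells (9.86 to 14.3%), in 0.492% of 3859 other cells and in 0.114% of 879 cells of cluster 6, taken as the background level; the median depths were 7799.5, 8774 and 9835 UMIs. Without thinning the shares were 21.0%, 1.08% and 0.109%, and 47 cells of cluster 2, 300 of the others and 35 of cluster 6 were too shallow to thin. MAOB was thus the sharpest single marker, yet most cells of the cluster had no UMI of it at this depth.

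ENPP2 had 185 CPM in cluster 2 and 14.8 CPM in the other cells (12.5-fold, 11.3 to 13.8). By population it stood at 59.3, 108, 78.4, 179, 240, 98.3, 81.0, 84.1 and 92.0 CPM in members and at 19.6, 8.43, 28.4, 39.3, 53.4, 3.93, 4.19, 4.34 and 6.20 CPM outside. Members were above outside cells in every population, and both were highest at 250 nM. After thinning, 46.1% of cluster 2 cells and 4.66% of the others had an ENPP2 UMI, against 0.569% in cluster 6. MGP, matrix Gla protein, an inhibitor of calcification, was the most abundant of the leading genes, with 753.5 CPM against 94.0 CPM (8.01-fold, 7.69 to 8.36) and detection in 71.0% against 16.1% of thinned cells, with 7.85% in cluster 6. MGP members ranged from 341 CPM at 4 µM to 1110 CPM at 500 nM, and outside cells from 44.8 CPM at 1 µM to 173 CPM at 30 nM, so the ranges over populations did not overlap.

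The other leading genes were of mixed kinds. PCSK2, a prohormone convertase, had 109 against 13.3 CPM, and GRM8, a metabotropic glutamate receptor, 338 against 46.1 CPM. CHL1 had 38.6 against 2.90 CPM (13.3-fold, 10.7 to 16.8), and PTGS2 34.5 against 3.37 CPM (10.3-fold, 8.28 to 12.8). SYNM, the intermediate filament protein synemin, had 345 against 57.7 CPM, and ANGPTL7, a secreted angiopoietin-like protein, 76.4 against 10.8 CPM. These did not all mark the cluster in each population: PTGS2 was 1.93-fold higher at 250 nM (1.33 to 2.87) and 1.63-fold at 125 nM (0.459 to 4.78), and ANGPTL7 only 1.19-fold at 60 nM (0.676 to 1.96) but 35.3-fold at 125 nM (12.5 to 138). Among the named genes MAOB, ENPP2, CHL1, MGP, CLPSL1, ROPN1, SYNM, MGAM2, COL14A1 and PTPRZ1 were at least 2-fold higher in all 4 populations on the log2(CPM + 1) scale. PTPRZ1, a receptor phosphatase of glial cells, was at 236 CPM against 55.6 CPM. Of the list of neuronal adhesion and channel genes 5 of 25 were higher and 3 lower (all genes 2.89% and 4.21%; median 0.00). Within populations 5 of 24 were higher and 4 lower (all genes 2.03% and 3.26%; median -0.04). Members of this list thus differed in both directions. Cluster 2 had the highest level of all 8 clusters for 996 measured genes (10.4%) and the lowest for 758 (7.91%). For every gene some cluster of the 8 is highest and some cluster lowest, so these counts alone do not mark cluster 2. Against each of the 7 other clusters taken singly, 16 measured genes (0.167%) were at least 2-fold higher in cluster 2 and 6 (0.0626%) at least 2-fold lower. MAOB, ENPP2, CHL1, PTGS2, MGP, CLPSL1, ROPN1, SYNM, MGAM2 and KIF26B were named genes among the 16, and IGFBP3 among the 6.

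**Figure D2:**
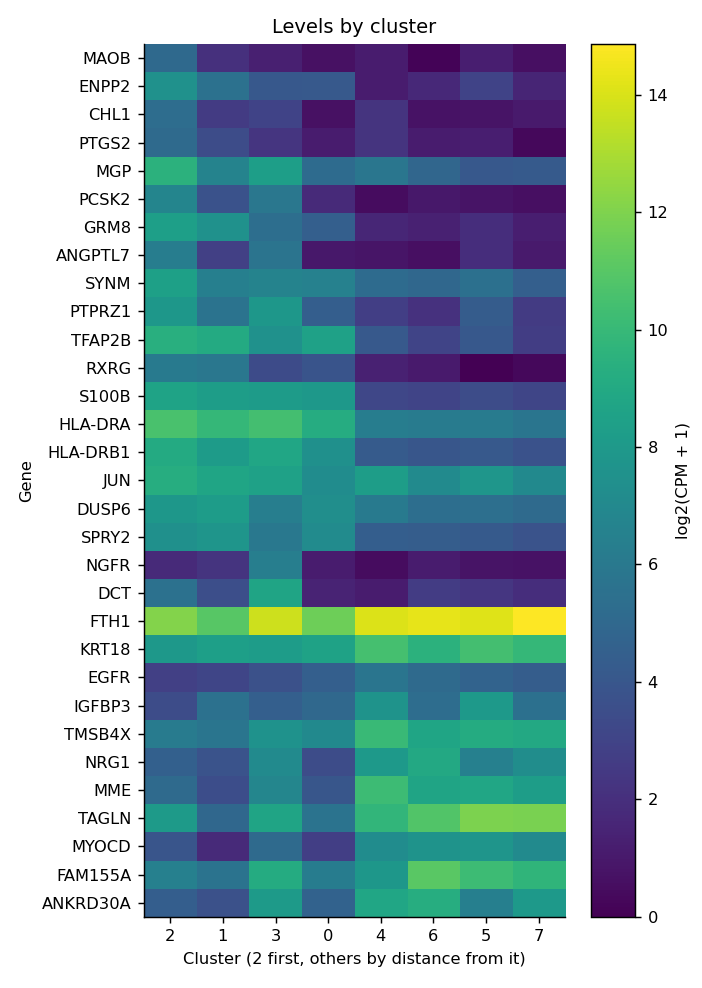
Levels of 31 named genes as log2(CPM + 1), with cluster 2 in the first column and the other 7 clusters in order of their distance from it. MAOB to SYNM were highest in cluster 2, TFAP2B to SPRY2 were also found in clusters 1, 3 or 0, and FTH1 to ANKRD30A were mostly higher in clusters 4 to 7.

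**Figure D3:**
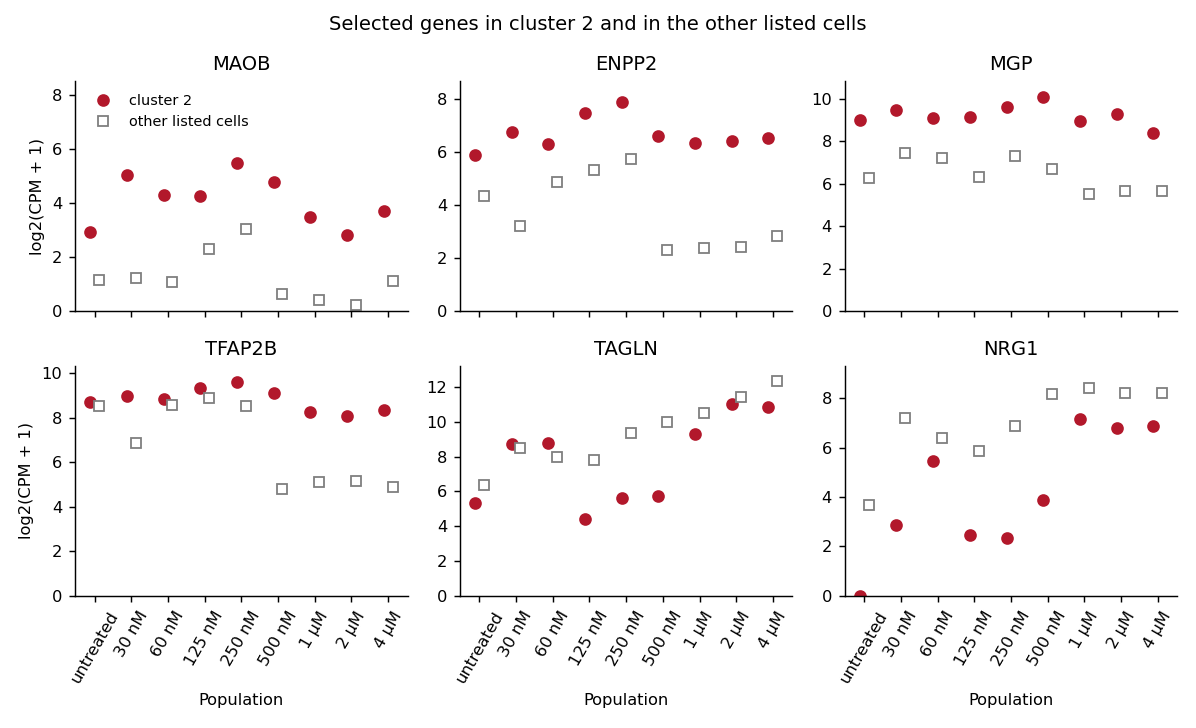
log2(CPM + 1) of 6 genes by population: filled circles are cluster 2 members and open squares the other listed cells of the same population, 1 culture each. MAOB, ENPP2 and MGP lay higher in members in all 9 populations, MAOB on 1 to 4 UMIs in untreated and 1 to 4 µM members. TFAP2B was far apart at 30 nM and from 500 nM up, and TAGLN from 125 to 500 nM.

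Cluster 2 cells carried several neural crest factors, while most pigment genes were near the floor, as in all 8 clusters. SOX10 had 226 CPM in cluster 2 and 113 CPM in the other cells, just short of the 2-fold call on the log2(CPM + 1) scale, ERBB3, the receptor kinase of the neuregulin family, 207 against 104 CPM, and TFAP2B, an AP-2 factor of neural crest, 653 against 178 CPM (3.66-fold, 3.53 to 3.80). S100B, a calcium-binding protein of glia and melanocytes, had 389 against 138 CPM, and RXRG, a retinoid receptor, 65.0 against 14.8 CPM. In contrast NGFR, the nerve growth factor receptor, stood at 2.43 against 15.8 CPM (6.51-fold lower, 4.13 to 10.9) and SOX9 at 5.24 against 23.3 CPM. Of the neural crest list 4 of 14 measured genes were higher and 2 lower (all genes 2.89% and 4.21%; median 0.74), and within populations 3 of 13 were higher and 1 lower (all genes 2.03% and 3.26%; median 0.66). Without the 1, 2 and 4 µM cells on either side 2 of 14 were higher and 2 lower (all genes 167 and 359 of 9576). TFAP2B and S100B were highest in cluster 2, but clusters 0 and 1 held more SOX10 (287 and 264 CPM) and ERBB3 (251 and 238 CPM). The neural crest list summed to 5362 and 5981 CPM in clusters 0 and 1, against 4047 CPM in cluster 2. TYR had 0 UMIs in cluster 2, which allows up to 0.384 CPM, TYRP1 2, MLANA 10 and PMEL 16 UMIs. The pigment enzyme DCT did not follow them: it had 364 UMIs, 46.6 against 76.3 CPM in the other cells, the second highest level of the 8 clusters after cluster 3, and 106 against 35.1 CPM at 500 nM (3.02-fold, 2.26 to 4.01). MITF, the regulator of these genes, was at 167 against 121 CPM, and the melanocyte lineage list summed to 493.9 against 340.4 CPM, with 1 of 5 measured genes higher and 0 lower (1 and 2 without the 1, 2 and 4 µM cells).

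Among the 4 populations compared, TFAP2B and SOX10 set members apart most at 500 nM. Members of untreated to 4 µM populations held 422, 504, 462, 652, 779, 549, 310, 273 and 323 CPM of TFAP2B, against 368, 114.8, 384, 468.5, 366, 26.7, 33.5, 34.9 and 28.6 CPM in the other cells. At 60 nM the fold was 1.20 (1.06 to 1.37), at 125 nM 1.39 (1.22 to 1.59), at 250 nM 2.13 (1.94 to 2.34) and at 500 nM 20.6 (16.5 to 25.99). SOX10 followed at the upper doses only, with 251 against 24.7 CPM at 500 nM and 243 against 152 CPM at 250 nM. At 60 and 125 nM it was not higher in members, at 186 against 213 CPM and 208 against 217 CPM. The 500 nM members thus kept the level of the lower doses in a population whose other cells had little of either factor. After thinning, TFAP2B was detected in 90.04% of cluster 2 cells, 84.4% of cluster 1 cells and 2.50% of cluster 6 cells, the last taken as its background.

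Genes of antigen presentation by MHC class II were higher as a group. Of 9 measured members 8 were higher than in the other listed cells (background 2.89%; median 1.501), 8 of 9 in the mean within populations (median 1.34), and 6 of 9 without the 1, 2 and 4 µM cells (median 1.03). HLA-DRA had 1526 CPM in cluster 2 and 520 CPM elsewhere (2.93-fold, 2.87 to 3), HLA-DRB1 545 against 158.5 CPM, and HLA-DQA1 120 against 32.6 CPM. The invariant chain CD74 and the master regulator CIITA had log2 ratios of 1.496 and 1.48, and HLA-DMA was the member that missed 2-fold. Summed over the list, members at 60, 125, 250 and 500 nM held 4636, 4689, 6097 and 8296 CPM, against 3455, 2977, 3121 and 1077 CPM outside. Class II genes were therefore higher in members in each of these populations, and furthest apart at 500 nM. MHC class I presentation had 0 of 14 genes higher and 0 lower (median -0.04). HLA genes have near-identical copies, so reads may be split among them.

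The ERK feedback genes DUSP6 and SPRY2 were higher than in the pooled other cells, and the MAPK output list as a whole was mixed. DUSP6 had 231.5 CPM in cluster 2 and 109 CPM elsewhere (2.12-fold, 2.01 to 2.24), and SPRY2 172 against 75.6 CPM. Of that list 3 of 17 genes were higher and 2 lower (all genes 2.89% and 4.21%; median 0.26). Within populations 0 of 16 were higher and 1 lower (all genes 2.03% and 3.26%; median 0.07), and without 1, 2 and 4 µM 0 of 17 were higher and 3 lower (all genes 167 and 359 of 9576). The pooled counts lay above the all-gene shares in both directions. Within populations the counts lay near those shares, which shows neither a difference nor its lack. The summed list stood at 2068, 1884, 2067 and 1968 CPM in members of 60, 125, 250 and 500 nM, against 2398, 2630, 1949 and 910.9 CPM outside, so members were lower at 60 and 125 nM and higher at 500 nM. At 60, 125 and 250 nM the DUSP6 folds were 1.04 (0.861 to 1.23), 1.10 (0.896 to 1.35) and 1.36 (1.19 to 1.57), and at 500 nM 4.37 (3.54 to 5.39), where members held 228 CPM and other cells 52.2 CPM. The receptors EPHA2 and EPHA4 of the same list were lower, at 7.42 against 21.4 CPM and 2.94 against 10.8 CPM. BRAF itself was at 138.5 against 112.5 CPM (1.23-fold, 1.15 to 1.32).

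Of the AP-1 and immediate early list 8 of 19 genes were higher and 1 lower (all genes 2.89% and 4.21%; median 0.96). In the mean within populations 0 passed 2-fold upward and 1 downward (all genes 2.03% and 3.26%; median 0.43), and without the 1, 2 and 4 µM cells 3 were higher and 1 lower (median 0.80). The summed list was nonetheless higher in members of each population compared, at 3838, 4569, 4793 and 4419 CPM at 60, 125, 250 and 500 nM, against 3490, 3799, 3626 and 2249 CPM outside. JUN, a core AP-1 subunit, had 618 against 249 CPM and was 1.07-fold (0.944 to 1.21), 1.76-fold (1.55 to 2), 1.59-fold (1.46 to 1.74) and 4.11-fold (3.63 to 4.66) higher at 60, 125, 250 and 500 nM. NR4A1, an orphan nuclear receptor of the immediate early class, had 155 against 60.6 CPM but 176 against 162 CPM within 250 nM. FOSL2, another AP-1 subunit, was the lower member, at 8.44 against 30.0 CPM. Immediate early genes can move with cell handling, which was not tested.

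The lower genes were led by ANKRD30A, SLC35F3, CNTN5 and TLL1, and by genes of contractile and dedifferentiated cells. ANKRD30A, known as a breast differentiation antigen, stood at 21.1 against 284 CPM (13.5-fold lower, 11.5 to 15.8). NRG1, the neuregulin ligand of ERBB3, was at 22.5 against 198 CPM (8.78-fold lower, 7.56 to 10.3), MME, the cell-surface peptidase neprilysin, at 34.3 against 274 CPM, and FAM155A at 88.3 against 847 CPM. For NRG1 the members of 125, 250 and 500 nM held 4.53, 4.03 and 13.9 CPM against 58.1, 118 and 292 CPM outside, while those of 60 nM held 42.6 against 82.4 CPM. Over the pooled cells the ligand NRG1 and the receptor ERBB3 therefore differed in opposite directions. ERBB3 was 1.24, 1.82 and 7.74-fold higher in members at 125, 250 and 500 nM. At 60 nM it was not higher, at 174 against 187 CPM (0.928-fold, 0.751 to 1.14). Cluster 1 also held more ERBB3 than cluster 2, at 238 against 207 CPM.

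Of the lists with at least 10 measured genes, the smooth muscle contractile list had the largest median ratio in size. Of 13 measured genes 11 were lower and 1 higher (background 4.21% lower; median -2.02), and within populations 9 were lower and 1 higher (median -1.91). Without the 1, 2 and 4 µM cells 7 of 12 were lower. The higher member was SYNM. TAGLN, the actin-binding protein transgelin, had 271 against 1441 CPM (5.33-fold lower, 5.10 to 5.56), ACTA2, smooth muscle actin, 78.3 against 363 CPM, and MYOCD, the transcriptional coactivator of that program, 13.9 against 98.6 CPM. TAGLN was spread unevenly over members: it stood at 39.5, 427, 438, 20.4, 47.9, 51.6, 634, 2096 and 1851 CPM in members from untreated to 4 µM, against 82.2, 363, 249.7, 218, 640, 1002, 1440, 2773 and 5118 CPM in the other cells. At 125, 250 and 500 nM members were far below their populations, and at 30 and 60 nM they were above (at 60 nM 1.76-fold, 1.53 to 2). At 2 µM they held more TAGLN than cluster 6 as a whole (1839 CPM), and at 4 µM about as much.

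Parts of 5 further lists were lower (all genes 4.21%). Of the dedifferentiated melanoma list 7 of 13 were lower and 1, JUN, was higher (median -1.04), of the receptor kinases and ligands 7 of 15 were lower (median -0.95), and of the YAP and TEAD targets 7 of 17 (median -0.63). The lists share members, among them AXL, NT5E, EGFR, NRG1 and IGFBP3. EGFR had 6.14 against 22.2 CPM, AXL 23.9 against 54.7 CPM and IGFBP3, which binds insulin-like growth factors, 9.98 against 55.8 CPM. Of the extracellular matrix list 8 of 26 were lower (median -0.47), with POSTN, periostin, at 14.5 against 95.3 CPM, and of the actin cytoskeleton list 5 of 19 (median -0.74), with TMSB4X at 71.0 against 348 CPM. Within populations 5 of 12, 4 of 14, 3 of 17, 6 of 26 and 4 of 19 genes of the dedifferentiated, receptor, YAP and TEAD, matrix and actin lists were lower and 0 were higher (all genes 3.26% and 2.03%). Without the 1, 2 and 4 µM cells 6 of 12, 7 of 14, 7 of 17, 8 of 26 and 4 of 19 were lower, and 1 dedifferentiated and 1 YAP and TEAD gene were higher. The summed levels were close for 2 of these lists, at 1201 against 1220 CPM for the dedifferentiated and 8053 against 8473 CPM for the matrix list. The ferritin heavy chain FTH1 was at 4353 against 15470 CPM (3.55-fold lower, 3.52 to 3.59) and the keratin KRT18 at 245 against 665 CPM; FTH1, TMSB4X and KRT18 have processed copies in the genome that can share reads.

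**Figure D4:**
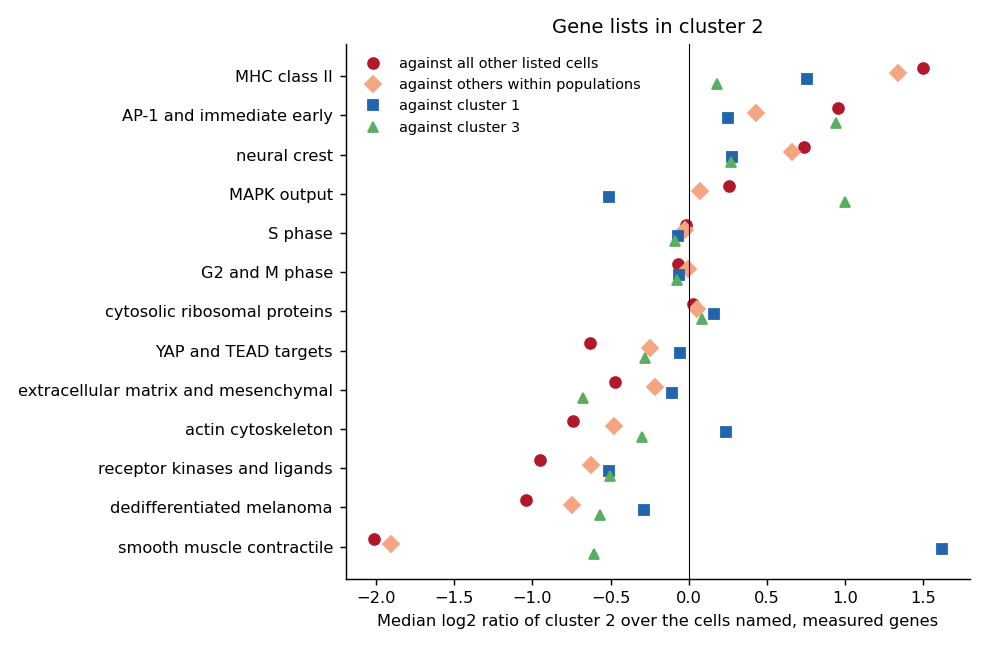
Median log2 ratio over the measured genes of 13 lists, cluster 2 over all other listed cells (circles), over other cells within populations (diamonds), over cluster 1 (squares) and over cluster 3 (triangles). MHC class II lay at 1.501 against all other cells and 0.18 against cluster 3, and the smooth muscle contractile list at -2.02 against all other cells and 1.62 against cluster 1.

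The 2 clusters nearest to cluster 2 were cluster 1 and cluster 3, at root mean square differences of 0.468 and 0.534 on the log2(CPM + 1) scale, and the farthest was cluster 7 at 1.11. Against cluster 1, which held 409 of its 751 cells from 60 nM, 199 of 9423 genes (2.11%) were higher and 275 (2.92%) lower in cluster 2. MAOB (33.1 against 3.18 CPM), PCSK2 (109 against 12.3 CPM) and ANGPTL7 (76.4 against 5.95 CPM) were among the 5 highest, and their log2 ratios of 3.03, 3.05 and 3.48 were 3.14, 3.13 and 3.52 without the 1, 2 and 4 µM cells. KRT81 and TAGLN were the others, and rested largely on the high doses: their log2 ratios of 3.06 and 3.14 were 1.35 and 1.60 without them. Members of 1, 2 and 4 µM held 188, 698 and 624 of the 2116 TAGLN UMIs of the cluster. VGF, a neuropeptide precursor, was at 57.3 against 493 CPM, the ion exchanger SLC24A3 at 45.0 against 362 CPM and the hyaluronan-binding CEMIP at 24.1 against 226 CPM. Of the MAPK output list 5 of 17 genes were lower and 0 higher than in cluster 1 (median -0.51), with DUSP6 at 231.5 against 295 CPM. The smooth muscle contractile list had 8 of 13 higher than in cluster 1 (median 1.62), but 3 of 11 (median 0.30) without the 1, 2 and 4 µM cells, so most of those calls rested on the 76 members of these doses and their counterparts.

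Against cluster 3, which held 373 cells of 30 nM and 260 of 60 nM, 246 of 9602 genes (2.56%) were higher and 353 (3.68%) lower. ENPP2 (185 against 15.8 CPM), GRM8 (338 against 40.5 CPM) and the ion exchanger SLC24A2 (269.5 against 25.1 CPM) were higher, with 8 of 15 MAPK output genes (median 1.00) and 8 of 19 AP-1 and immediate early genes (median 0.94). NGFR was at 2.43 against 82.3 CPM, the pigment enzyme DCT at 46.6 against 408 CPM, the chemokine CXCL14 at 0.384 against 33.3 CPM and the fatty acid receptor CD36 at 1.54 against 28.97 CPM. MHC class II did not separate the clusters: 0 of 9 genes were higher and 0 lower (median 0.18), at a summed 5849 against 5222 CPM. Cluster 2 thus shared its class II genes and PTPRZ1 (236 against 232 CPM) with cluster 3, and held TFAP2B (653 against 553 CPM) and SLC24A2 (269.5 against 269 CPM) at levels near those of cluster 1. Summed over the MAPK output list it lay between them, at 1983 CPM, against 3080 CPM in cluster 1 and 1141 CPM in cluster 3.

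The members themselves differed by dose of origin. Profiles of the 60, 125, 250 and 500 nM members lay at root mean square differences of 0.467, 0.569, 0.432 and 0.499 from the rest of cluster 2, and at 0.568, 0.654, 0.477 and 0.771 from cluster 1. For the 500 nM members cluster 3 was the nearest other cluster, at 0.643. Each was nearest to its own cluster, which the clustering of these same genes leads to and which is no support for it. The gaps to the next cluster cannot be compared between doses. The rest of cluster 2 was mostly 250 nM cells except for the 250 nM members, and the UMI sums differed. Against the 250 nM members, the 500 nM members had 195 of 8084 genes (2.41%) higher and 287 (3.55%) lower. TAC1, the precursor of substance P, had 549 CPM in 500 nM members and 43.4 CPM in 250 nM members (12.6-fold, 10.7 to 15), OTOGL 76.9 against 2.54 CPM, the chemokine CCL2 40.3 against 4.03 CPM and the cytokine IL24 40.3 against 4.45 CPM. FOXD3, a neural crest factor, was at 66.8 against 18.2 CPM. FRMD4B, the nuclear receptor RORB and ID4 were lower, at 16.4 against 102 CPM, 15.1 against 85.8 CPM and 11.3 against 43.2 CPM.

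The 125 nM members had 25 of 7098 genes (0.352%) higher and 397 (5.59%) lower than the 250 nM members, with a median ratio of -0.17, in sums of 441671 and 4720152 UMIs. In the smaller sum 20 UMIs are a higher CPM, so a gene needed more CPM to count as higher than as lower. Simulated counting error alone called 264 of 6924 unchanged genes in this comparison, 162 of 7389 at 60 nM and 82 of 7844 at 500 nM. IL24 was higher there too, at 49.8 against 4.45 CPM, with IGFBP5 at 56.6 against 13.6 CPM and the hyaluronan-linking protein HAPLN1 at 265 against 77.3 CPM. PCSK2 and PTGS2, which lead the cluster as a whole, were lower in these cells, at 18.1 against 124 CPM and 11.3 against 45.3 CPM. The 60 nM members had 133 of 7609 (1.75%) higher and 297 (3.90%) lower. SUCNR1 (34.1 against 0.212 CPM, on 20 and 1 UMIs) and ABCC3 (34.1 against 1.48 CPM) led the higher side. Of the smooth muscle contractile list 8 of 11 genes were higher and 1 lower (all genes 1.75% and 3.90%). Among them MYL9, a myosin light chain, was at 170.5 against 14.8 CPM and MYOCD at 40.9 against 2.12 CPM. MME was at 128 against 9.53 CPM. Leaving out large cells (UMIs above 2 times their population's median), which removed 10 of the 57 members of 60 nM, gave 70 higher genes.

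Under single barcodes, members from the highest doses often held UMIs of both TFAP2B and TAGLN. After thinning, 22 of 74 members from 1 to 4 µM (29.7%, 19.7 to 41.5%) had at least 1 TFAP2B and at least 2 TAGLN UMIs, against 5 of 553 members from 250 nM (0.904%), 1 of 97 from 500 nM (1.03%), 3 of 50 from 60 nM (6%, 1.26 to 16.6%), 1 of 12 from 30 nM (8.33%, 0.211 to 38.5%), 0 of 56 from 125 nM, 0 of 11 untreated members and 35 of 1571 other cells of 1 to 4 µM (2.23%). In cluster 3 the share was 5.74% and in clusters 6 and 7 it was 1.02% and 1.31%. Each gene was common in the members from 1 to 4 µM, TFAP2B in 68.9% and TAGLN in 51.4%. In the other cells of 1 to 4 µM TFAP2B was found in 6.43% and TAGLN in 70.2%. The larger joint share of members thus lay with TFAP2B, which was high in the cluster as a whole, and not with TAGLN. The high UMI counts of these members go with the joint share. The part of droplets holding more than 1 cell was not tested, since no doublet caller was run.

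**Figure D5:**
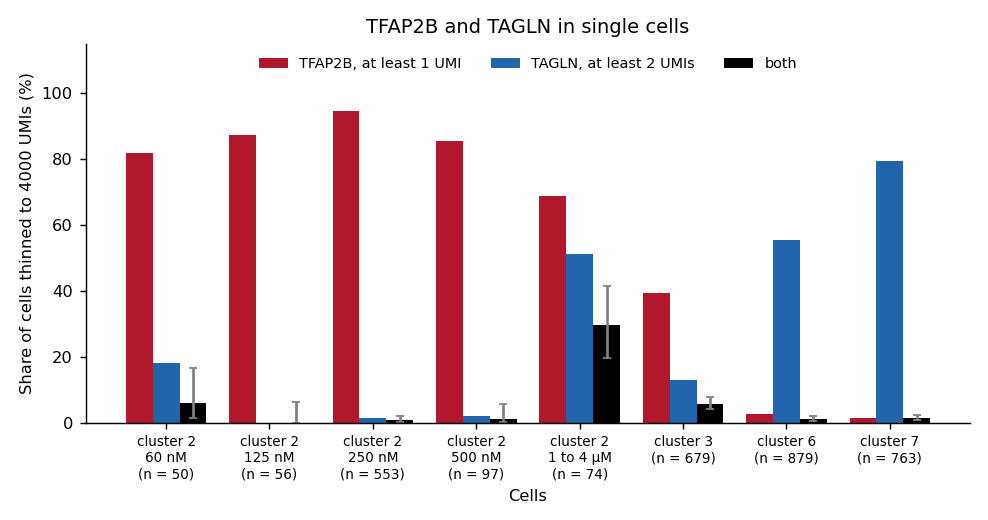
Share (%) of cells thinned to 4000 UMIs with TFAP2B (at least 1 UMI), TAGLN (at least 2 UMIs) and both, for members by dose and for clusters 3, 6 and 7; grey bars on the black columns are 95% exact binomial intervals. Both genes were found together in 29.7% of members from 1 to 4 µM and in 0.904% of those from 250 nM.

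Cells outside the authors' cell table, which their clustering did not number, also held cells near the cluster. A profile over 1000 variable genes without S, G2 and M genes, learned on a random part of the listed cells, returned 82.4% of the 467 held-out cluster 2 cells to cluster 2 and placed 1.07% of the other held-out cells there. This pooled rate did not hold at each dose. At 250 nM 76.7% of held-out cells were placed in cluster 2, where 79.4% belonged. The same shares were 15.25% and 23.3% at 500 nM, 2.13% and 4.56% at 2 µM, and 1.29% and 5.58% at 4 µM. Of the unlisted cells 20 of 1569 untreated (1.27%, 0.780 to 1.96%), 81 of 170 at 250 nM (47.6%, 39.9 to 55.4%), 28 of 185 at 500 nM (15.1%, 10.3 to 21.1%) and 10 of 250 at 4 µM (4.00%, 1.94 to 7.23%) were nearest to cluster 2. As among listed cells, 250 nM had the highest share and 500 nM the next. Unlisted 250 nM cells had 16.0 CPM of MAOB, 96.2 of ENPP2, 321 of MGP and 296 of GRM8, against 1.58, 11.9, 56.8 and 36.1 CPM in unlisted untreated cells. The unlisted cells were rich in cycle genes, with 6316 CPM over 53 G2 and M genes, against 1084 CPM in cluster 2 and 1072 CPM in the other listed cells.

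Several other lists had few or no genes past 2-fold, beside all-gene shares of 2.89% higher and 4.21% lower. Of the S phase list 0 of 22 genes were higher and 1 lower, and of the G2 and M list 1 of 24 was higher (GAS2L3, 60.0 against 23.8 CPM) and 0 lower. Cytosolic ribosomal proteins (0 of 46), nuclear respiratory chain genes (0 of 36), mitochondrial genome genes (0 of 13), the unfolded protein response (0 of 18), heat shock (0 of 12) and sterol synthesis (0 of 15) had no gene past 2-fold in either direction. Interferon response genes had 0 of 21 higher and 1 lower (ISG15, 19.7 against 40.9 CPM). Not all remaining lists were this flat. BMP and ID genes had 2 of 10 higher and integrins 2 of 12 higher and 1 lower. S100 proteins had 2 of 10 higher and 2 lower, and TGF-beta targets 1 of 10 higher and 2 lower. Complement (2 of 8), NF-kappaB targets (2 of 10), ferritin and iron (2 of 11), NRF2 targets (2 of 16) and ATF4 stress (2 of 17) had lower genes only. Of markers of other cell types, PTPRC (immune) had 5 UMIs in the 900 cells, LYZ 8, PECAM1 (endothelial) 7, CDH5 1, COL1A1 (fibroblast) 2 and EPCAM (epithelial) 4. The summed levels were 8.44 against 28.0 CPM for 6 immune genes, 6.27 against 7.27 CPM for 7 endothelial, 12.7 against 68.8 CPM for 7 fibroblast and 293 against 783.5 CPM for 9 epithelial genes, the last carried by KRT18 and KRT8. Of the genes that counted as measured, 4 of 4 epithelial, 2 of 2 fibroblast and 1 of 1 immune were lower.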

How the data were processed

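The deposited A375 table holds UMI counts per gene and cell as the authors made them, per the labels' description, and whole numbers with differing totals were found. Cell Ranger 7.0.0 and the build GRCh38 appear in the submitters' processing notes. The authors' cell table gives total counts, the number of genes (an other, unitless value), the percent of mitochondrial UMIs and the cluster of each listed cell, per the file headers; its total counts and gene numbers equalled those of the count table. How the authors chose and clustered the listed cells is not given in the sources used here. Populations are the suffixes of cell names, with T05 read as T0500. The 2 sequencing runs are not told apart in cell names, and PC9 files were not used. The members, the gene lists, the rules and the alternatives were chosen with earlier results of these data known.

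UMIs were summed per group and scaled to CPM. Named genes had at least 25 CPM in the higher group and no clone, antisense or LINC name: the 15 highest and 15 lowest against the other listed cells, the 10 highest and 10 lowest within populations, the 5 highest and 5 lowest against each of the 2 nearest clusters, up to 4 members of each of 44 lists with the largest ratios, and BRAF. Genes named for differences between members by dose, and marker genes, are outside this rule and were chosen after their values were seen. A gene with 0 UMIs was given a limit of 3 counts. Cells were thinned to 4000 UMIs with a fixed seed. No doublet caller was run. The alternatives tried were 5 CPM as pseudocount, a minimum of 50 CPM or none, 3-fold, TMM factors (edgeR 4.0.16, R 4.3.3), totals without mitochondrial and ribosomal protein genes, per-cell means, other clusters weighted equally, at least 20 cells a side, cells over 2 times the median UMIs left out, and populations left out. The ratios were tested on simulated data holding counting error alone. For cluster 2 against the other listed cells 50 of 50 genes set 3-fold higher, 0 of 50 set 1.5-fold higher and 0 of 9220 unchanged genes were called. Within 60, 125, 250 and 500 nM 163 of 7581, 302 of 6969, 26 of 8769 and 114 of 7990 unchanged genes were called. Tables and intervals were made with pandas 2.3.3, numpy 2.4.6 and scipy 1.17.1 under Python 3.11.15.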

Additional observations from a re-analysis of the deposited data

Results flagged for a closer look

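Genes whose ratio of cluster 2 over the other cells pointed one way by 2-fold in one population and the other way in another were picked out; these differences were not tested. DCT, the pigment enzyme dopachrome tautomerase, had 106 against 35.1 CPM at 500 nM and 13.6 against 64.1 CPM at 125 nM, a difference of 3.72 in log2 ratio. SLC24A3 had 34.0 against 3.65 CPM at 500 nM and 24.9 against 476 CPM at 125 nM, a difference of 7.12. VGF had 63.0 against 21.9 CPM at 500 nM and 70.2 against 454 CPM at 125 nM, a difference of 4.16. NUPR1, a stress-induced nuclear protein, had 69.9 against 32.7 CPM at 60 nM and 10.2 against 74.8 CPM at 250 nM, a difference of 3.83. For SLC24A3 and VGF the level in members was alike at both doses and the level of the other cells differed.

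Cells outside the authors' cell table took no part in the comparisons, and those of 250 nM held more of 3 leading genes than those of the untreated population. Of the unlisted 250 nM cells 47.6% were nearest to the cluster 2 profile, against 1.27% of the unlisted untreated cells. MAOB had 16.0 against 1.58 CPM, ENPP2 96.2 against 11.9 CPM and MGP 321 against 56.8 CPM in these cells. Listed 250 nM cells outside cluster 2 also held more MAOB and ENPP2 than listed untreated cells outside it. Dose and cluster therefore cannot be told apart in these summed levels.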

How the results depend on the processing

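No paired analysis was possible because the clusters were drawn from the tested genes, which bars a test across populations too, and the 2 numbered runs are not told apart in the cell names. Against the other listed cells, 277 genes were higher and 403 lower; no CPM minimum gave 786 lower, a minimum of 50 CPM gave 166 higher and 143 lower, a 3-fold threshold 90 higher and 230 lower, and leaving out 1, 2 and 4 µM cells, chosen after seeing the data, 167 higher. Leaving out each population in turn gave 221 to 396 higher and 264 to 466 lower, with 264 lower without 250 nM. Against cluster 1, no CPM minimum gave 304 higher and a minimum of 50 CPM 76 higher and 138 lower, and against cluster 3 these gave 577 lower, and 137 higher and 121 lower. Within populations 302 genes were higher without cells over 2 times the median UMIs. The 250 nM share was 63.57% of all cells. With a pseudocount of 5 CPM, 151, 211 and 164 genes were lower in the 60, 125 and 500 nM members than in the 250 nM members, and without cells over 2 times the median UMIs 70 were higher at 60 nM. ZNF385D had a log2 ratio of -0.093 against cluster 1, in place of 1.19, without the 1, 2 and 4 µM cells. The cause of these moves was not tested, beyond the stricter or wider choice of genes that a minimum or threshold makes. Of 3819 recomputed ratios of 201 named and marker genes against the other cells, 875 moved outside the counting interval of the main ratio. None of the genes at 2-fold or more in the main setting changed sign. Genes with smaller ratios were not checked for a change of sign. Sums of 441671 to 793801 UMIs in the 60, 125 and 500 nM members limit the precision of low genes.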
